A study of Homo sapiens with 12 samples.

Results

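The USP genes encode the ubiquitin-specific proteases, the largest family of human deubiquitinases. They were taken as every gene of the deposited splicing table whose symbol was USP followed by a number, with or without an X. This gave 50 of the 30275 genes in the table, with 3552 of its 721551 splicing events. Of these events, 2813 in 42 genes had 20 or more reads in all 12 samples, out of 313032 such events in the whole table. They were 952 exons, 783 introns, 679 alternative 3′ splice sites and 399 alternative 5′ splice sites. Spliced reads, the reads across exon-exon junctions of annotated introns, gave a second measure for 41 USP genes with a mean of 50 or more. USP2, USP6, USP29, USP43, USP44, USP50 and USP51 fell under that minimum, and USP26 and USP41 had no intron in the table.

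RNA was sequenced from MEC1, an established cell line of B cells from chronic lymphocytic leukemia (CLL), in 4 groups of 3 samples. Of the WT cultures, 2 were labelled with unchanged SF3B1, and WT replicate 3 was labelled as WT with the base change c.2106G>A. The 3 K700E cultures carried c.2098A>G, the K700E change, together with c.2106G>A. Each culture was sampled after 6 h with DMSO or with 75 nM H3B-8800, so that the same-numbered samples of a genotype share a culture. K700E differences therefore cannot be told apart from differences between separately derived cultures, except for what WT replicate 3 shares with the mutants. The labels do not say that samples of a group came from separate experiments, so p-values measure the spread between these samples only, which may be technical.

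Ubiquitin-specific proteases are cysteine proteases that cut ubiquitin, or chains of it, from proteins. They thereby keep substrates from the proteasome, edit signalling chains and return free ubiquitin to the pool. SF3B1 is the part of the U2 particle that holds the branch point of an intron while the 3′ splice site is chosen. H3B-8800 binds the SF3B complex, and K700E is the most frequent SF3B1 change in CLL, known for use of other 3′ splice sites. The samples address how the compound changes splicing and whether the mutation alters that.

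Spliced reads over all genes came to between 45840233 and 56676172 per sample. All 8 B cell marker genes had spliced reads, summing to 3760 to 6950 RPM (spliced reads per 1000000 spliced reads of the sample) in the 12 samples. T and NK cell markers summed to 0.553 to 1.86 RPM with CD3G at 0, and myeloid markers to 0.386 to 1.69 with FCGR1A at 0. The sum of 6 fibroblast and epithelial markers lay between 11.3 and 20. Any 2 samples differed in at least 88.7% of the tested levels, so no sample was a copy of another. In these bulk samples, fewer cells and less RNA per cell cannot be told apart.

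The exons below are 5 of those with the largest drops in inclusion, shown because the annotated transcript keeps its reading frame without those of USP34, USP47 and USP13 and loses it without those of USP19 and USP9X. Each is written 5′ to 3′ on the coding strand with the exon in capitals between the last and first 15 bases of its neighbours, read from the GENCODE v29 transcripts (GRCh38, the hg38 build of the files). The USP19 exon lies at chr3:49117437-49117570 on the minus strand, the USP34 exon at chr2:61223060-61223164 on the minus strand, and the USP47 exon at chr11:11954897-11954944 on the plus strand. The USP13 exon lies at chr3:179757052-179757078 and the USP9X exon at chrX:41162790-41162877, both on the plus strand, and all 5 lie within the coding sequence.
USP19 exon of 134 nt: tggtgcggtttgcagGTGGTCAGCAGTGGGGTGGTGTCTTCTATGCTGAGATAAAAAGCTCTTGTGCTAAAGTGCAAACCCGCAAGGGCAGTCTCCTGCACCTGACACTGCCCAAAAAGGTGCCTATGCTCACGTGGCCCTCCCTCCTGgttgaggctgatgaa
USP34 exon of 105 nt: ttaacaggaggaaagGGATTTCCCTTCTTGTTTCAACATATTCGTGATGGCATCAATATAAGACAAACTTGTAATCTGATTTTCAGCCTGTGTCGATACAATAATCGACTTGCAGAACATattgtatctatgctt
USP47 exon of 48 nt: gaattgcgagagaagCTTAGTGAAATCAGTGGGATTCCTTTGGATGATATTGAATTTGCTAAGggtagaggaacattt
USP13 exon of 27 nt: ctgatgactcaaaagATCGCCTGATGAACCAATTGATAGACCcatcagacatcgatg
USP9X exon of 88 nt: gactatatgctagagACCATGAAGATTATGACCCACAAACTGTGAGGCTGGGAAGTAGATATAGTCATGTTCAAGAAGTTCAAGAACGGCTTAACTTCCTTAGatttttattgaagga

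In translations of the annotated transcript without the exon, USP47 kept the frame and went from 1355 to 1339 residues, USP34 from 3546 to 3511 and USP13 from 863 to 854. Without its 134-nt exon alone the USP19 frame ended after 158 of 1318 residues, and without its 88-nt exon that of USP9X ended after 635 of 2570. The exons on both sides of the USP19 exon also fell with H3B-8800 (below). Most treated USP19 transcripts may therefore lack more than this exon, and the length of 158 residues need not apply to them. These lengths describe the transcripts' sequence, and protein was not measured.

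H3B-8800 lowered the inclusion of exons in nearly every tested USP gene. An event counted as changed when its group means differed by at least 10 percentage points and its adjusted p was under 0.05 (limma on log2 odds of inclusion, Benjamini-Hochberg over all 109093 tested events). In WT cells 200 of 446 tested USP exons, in 39 of 40 genes, were included less, which is 44.8%, against 40.3% of all tested exons. In K700E cells the count was 182 exons in 38 genes, 40.8%, against 38.5% of all exons. The USP share was thus near that of the whole table in both genotypes. The median change of the USP exons was −7.74 points in WT and −7.12 in K700E cells, beside −6.88 and −6.47 for all tested exons. Averaged over the 446 exons, inclusion was 86.4 to 86.5% in the WT DMSO samples and 71.5 to 72.7% with H3B-8800. The K700E samples went from between 86.1 and 86.6% to between 73.1 and 74.2%, so no treated sample came near an untreated one. Of the changed exons, 172 were shared, 86.0% of the WT calls and 94.5% of the K700E calls. Only events with a mean level between 1 and 99% were tested, a filter that keeps events which moved and drops constant ones. These shares, medians and averages are therefore not those of all USP exons.

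The number of affected exons differed between genes, as did the number tested. In WT cells 44.8% of all tested USP exons and 40.3% of all tested exons were included less. USP34, which acts on axin in WNT signalling and has the most introns of the family in the table (79), had 24 of 47 (51.1%). USP40 had 12 of 18 (66.7%), USP25 11 of 20 (55.0%) and USP4 10 of 18 (55.6%). USP39, a part of the tri-snRNP that lacks protease activity, had 0 of 5, with a mean change of −2.49 points. In USP7 2 of 11 tested exons passed (18.2%).

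The largest fall was in USP19, a deubiquitinase of which one form sits in the membrane of the endoplasmic reticulum. Its 134-nt exon was included at 91.3, 95.8 and 95.8% in the WT DMSO samples and 5.46, 5.1 and 5.05% with H3B-8800. K700E samples went from 97.4, 98.8 and 96.8% to 8.23, 8.18 and 7.64%. All treated samples lay below 10% and all untreated ones above 90%, a log2 odds change of -8.24 ± 0.39 (SE) in WT cells (n = 3 per group, limma adjusted p = 1.43e-08), with at least 225 reads in every sample. The neighbouring exons moved with it: the 150-nt exon at chr3:49117209-49117358 fell from 88.9% to 4.57% in WT cells and the 174-nt exon at chr3:49117657-49117830 from 97.3% to 15.5%. Neighbouring exons share junction reads, so they are not independent measurements.

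USP24, USP8, USP9X and USP31 also had large falls, in coding exons whose loss ends the frame early. USP24, which acts on p53 among others, had a 122-nt exon at chr1:55079538-55079659 that was included at 99.7, 97.8 and 100% in WT DMSO samples and 20.9, 20.7 and 17.4% after treatment, and it fell from 99.6% to 31.9% in K700E cells. USP8, which acts on receptors sorted at endosomes, had a 145-nt exon at chr15:50476849-50476993 that fell from 97.7, 95.8 and 97.8% to 31.3, 27.9 and 24.1% in WT cells and from 98.8% to 36% in K700E cells. Without it, the annotated USP8 frame ended after 307 of 1118 residues. For USP9X, which stabilises MCL1, the 88-nt exon fell from 100, 100 and 99.6% to 40.4, 46.7 and 43.2% in WT cells and from 99.6% to 50.1% in K700E cells. Exons were named only where groups did not overlap, so the lack of overlap in these exons adds no evidence. Of the 200 USP exons included less in WT cells, 199 had groups that did not overlap. The thresholds of a call already favour this, so that count adds no evidence either, and the share among all called exons was not counted. USP31, a regulator of NF-kappaB, had a 130-nt exon at chr16:23084860-23084989 with no skipping read in any of the 6 DMSO samples, where 79 to 130 reads leave room for up to 2.31 to 3.8% skipping by the limit of 3 counts. With H3B-8800 its inclusion was 45.7, 46.2 and 45.1% in WT and 57.3, 50.8 and 52.6% in K700E samples.

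Exons that keep the frame were also among the largest falls. The 48-nt exon of USP47, a deubiquitinase tied to base excision repair, was included at 97, 97.8 and 98.1% in WT DMSO samples and 25.6, 22 and 23% with the compound (adjusted p = 1.86e-08). In K700E cells it went from 98% to 26.9%. The 105-nt exon of USP34 fell from 94, 95.5 and 94.4% to 25.4, 30.9 and 24.4% in WT cells and from 95.4, 94.6 and 92.4% to 20.4, 25.8 and 23.1% in K700E cells. USP13, a relative of USP5 that also acts on MCL1, had a 27-nt exon that fell from 95.7, 91.6 and 95.3% to 32.2, 34.1 and 39.5% in WT cells and from 93.9% to 44.3% in K700E cells. These 3 exons are a multiple of 3 nt long. Their groups did not overlap, which the rule for naming events required. The 66-nt exon of USP15 at chr12:62389634-62389699 fell by 57 points in WT and 60.4 in K700E cells. An exon of USP30, a mitochondrial deubiquitinase, at chr12:109072308-109072350 fell by 70.7 and 67 points, but its 43 nt are not a multiple of 3. Among the 10 largest falls in K700E cells, USP31 gave way to a 54-nt exon of USP40 at chr2:233512569-233512622, which fell from 95.9% to 47.7% and in WT cells from 97.3% to 47.5%.

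**Figure D1:**
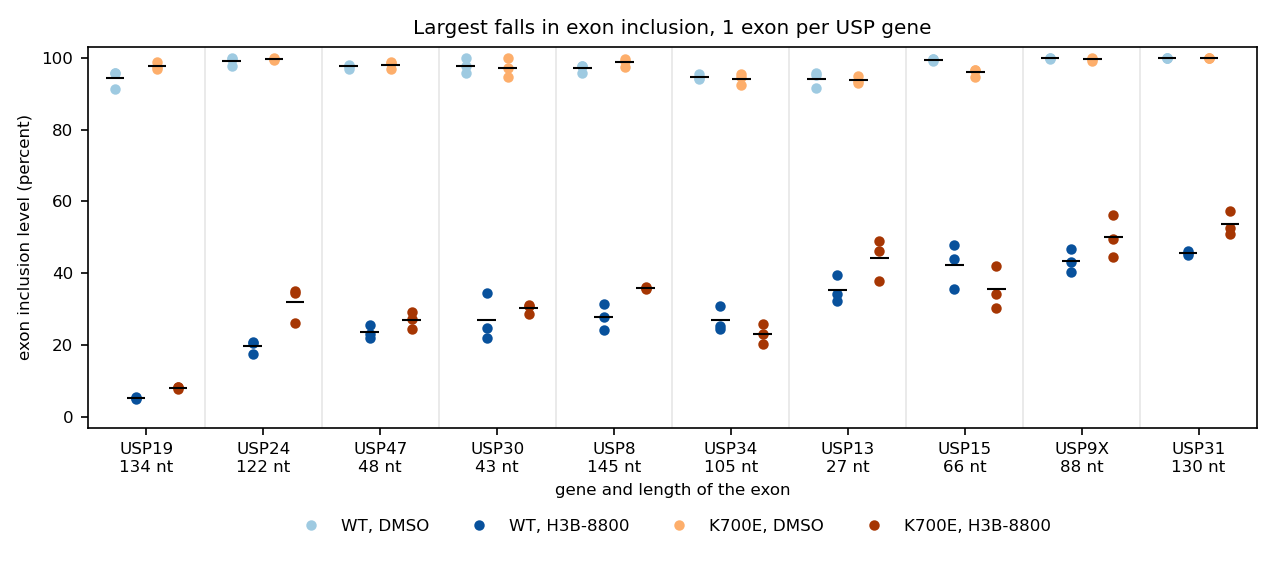
Inclusion level in percent (vertical axis) of the exon with the largest fall in each of 10 USP genes (horizontal axis, with exon length), for 3 samples per group as points and the group mean as a line. All DMSO samples lie above 90% and all H3B-8800 samples below 60%, and in each gene both genotypes fell.

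Length in multiples of 3 was compared between exons included less and the other tested exons. Of the 200 exons included less in WT cells, 66 (33.0%) were a multiple of 3 nt, against 106 of the other 246 (43.1%), and over all genes the shares were 37.3% and 37.6%. Among USP exons whose transcript could be translated, 111 of 165 exons included less (67.3%) ended the frame early when left out, leaving a median of 35.2% of the residues. For the other tested exons it was 94 of 174, with a median of 52.8% left. These shares describe the exons and were not tested.

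The catalytic cysteine of a USP protease stands in a short conserved stretch, the cysteine box. It was searched in the translated principal transcript as asparagine, any residue, glycine, asparagine or glutamine, then threonine, serine or isoleucine, then cysteine. 40 of 51 USP proteins held exactly 1 match and 11 held none, among them the inactive USP39 and also USP7, USP9X, USP10, USP53 and USP54, whose boxes deviate from this pattern. The exon coding for the cysteine of the match was among the tested events in 12 genes. The USP21 exon begins with the cysteine codon, so it does not hold the rest of the box. For USP16 the exon was placed in a transcript of 822 residues, not in the principal one of 823. Exons of USP25, USP4 and USP33 are shown because their inclusion fell most among these 12, in lower case with the codons of the box in capitals.
USP25 exon of 163 nt: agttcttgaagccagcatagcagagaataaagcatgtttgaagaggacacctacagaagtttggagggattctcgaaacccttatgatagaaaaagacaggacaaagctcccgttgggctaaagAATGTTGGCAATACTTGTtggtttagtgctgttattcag
USP4 exon of 118 nt: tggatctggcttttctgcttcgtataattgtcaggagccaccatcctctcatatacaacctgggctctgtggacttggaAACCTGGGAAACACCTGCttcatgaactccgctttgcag
USP33 exon of 70 nt: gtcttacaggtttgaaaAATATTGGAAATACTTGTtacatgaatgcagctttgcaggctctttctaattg

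The USP25 exon (chr21:15791502-15791664, plus strand) was included at 98.8, 99.4 and 98% in WT DMSO and 74.2, 70.5 and 68% in WT H3B-8800 samples, and in K700E cells went from 99.1% to 74.6%. The USP4 exon (chr3:49310620-49310737, minus strand) fell from 97.2, 96 and 97.9% to 66.2, 68.6 and 66.1% in WT cells and from 96% to 74.1% in K700E cells. For USP33 (chr1:77734347-77734416, minus strand), which acts on G protein-coupled receptors, levels went from 99.2, 96.5 and 99% to 71.5, 67.1 and 66.8% in WT cells and from 97.8% to 62.9% in K700E cells. In each of these 3 exons every treated sample lay below every untreated one, and most transcripts still held the exon. Exons of USP32 (99.6% to 80.2%), USP3 (97.5% to 83.5%), USP21 (100% to 84.8%), USP42 (99.1% to 85%) and USP37 (98.5% to 85.3%) also passed in WT cells. In K700E cells USP3 went from 97.4% to 87.5%, under the 10-point minimum, which it passed without K700E DMSO replicate 2 (−10.5 points) or K700E H3B-8800 replicate 2 (−10.2) or 3 (−10.2). USP21 (100% to 80.6%) and USP37 (100% to 85.2%) passed in K700E cells as well, and so did USP32 and USP42, but not without K700E H3B-8800 replicate 2 (USP32, −9.03 points) or replicate 3 (USP42, −9.02). Inclusion of the box exon stayed above 90% in all samples for USP15, USP16 and USP22, the last 2 being histone deubiquitinases. USP45 varied within groups, with 100, 78.5 and 100% in WT and 100, 77 and 81.7% in K700E samples under H3B-8800 (at least 23 reads in every sample), and it passed in K700E cells only (adjusted p = 0.0145). That call was lost without K700E H3B-8800 replicate 2 (adjusted p = 0.0665) or replicate 3 (adjusted p = 0.0599), and USP45 passed in WT cells without WT H3B-8800 replicate 1 (adjusted p = 0.0306). In USP37 and USP42 the box exon is a multiple of 3 nt, and leaving it out would remove the cysteine but keep 935 of 979 and 1249 of 1316 residues in the annotated frame.

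A few USP events moved against the general direction in both genotypes. Inclusion of a 308-nt exon of USP33 at chr1:77720279-77720586 rose from 0.82% to 13.3% in WT cells and from 0.477% to 11.9% in K700E cells. A 122-nt exon of USP24 at chr1:55105400-55105521 rose from 5.41% to 30.3% and from 4.81% to 26.2%, and a 249-nt exon of USP19 at chr3:49108937-49109185 from 17.1% to 48.1% and from 19.9% to 41.4%. The only intron retained less was one of 493 nt in USP19 at chr3:49116944-49117436, which went from 25.8% to 15.5% in WT cells and from 30.8% to 14.2% in K700E cells. It contains the 150-nt exon described above, and its WT call was lost without WT DMSO replicate 2 (adjusted p = 0.0851) or WT H3B-8800 replicate 1 (adjusted p = 0.0925).

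Retention of introns rose with H3B-8800 in most of the tested USP genes. In WT cells 97 of 359 tested introns in 25 of 41 genes were retained more, 27.0% against 31.9% of all tested introns. In K700E cells there were 98 in 21 genes, 27.3% against 31.6%. The median rise was 4.33 points in WT and 4.43 in K700E cells, beside 4.92 and 5.02 over all introns. Mean retention over the 359 introns was 2.44 to 3.09% in WT DMSO samples and 12.4 to 13.6% with the compound. K700E samples went from between 3.06 and 3.13% to between 11.6 and 14.2%. Of the calls, 86 were shared, 88.7% of those in WT and 87.8% of those in K700E cells. USP21, which removes ubiquitin from histone H2A, had all 11 of its tested introns retained more in both genotypes. USP19 had 17 of 24 in WT cells, USP20 13 of 20, USP7 9 of 17 and USP16, another histone H2A enzyme, 6 of 8. USP25 and USP4, which had 11 and 10 exons included less, had 0 of 6 and 0 of 11 introns retained more.

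Introns that passed had a shorter median length than the rest. Their median length was 412 nt, against 1535 nt for USP introns that did not pass in WT cells, and 507 and 1312 nt over all genes. Up to 150 nt, 26 of 47 USP introns passed (55.3%), against 47.0% of all introns of that length. The shares were 39.5% (47 of 119) above 150 and up to 1000 nt and 14.3% (23 of 161) above 1000 and up to 5000 nt, beside 40.1% and 24.5% over all genes. Above 5000 nt only 1 of 32 USP introns passed, 3.12%, beside 11.8% over all genes. These shares are a description without a test, and introns of one gene share its reads. They also hold only for introns that passed the filter on the mean level, which keeps those that moved.

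**Figure D2:**
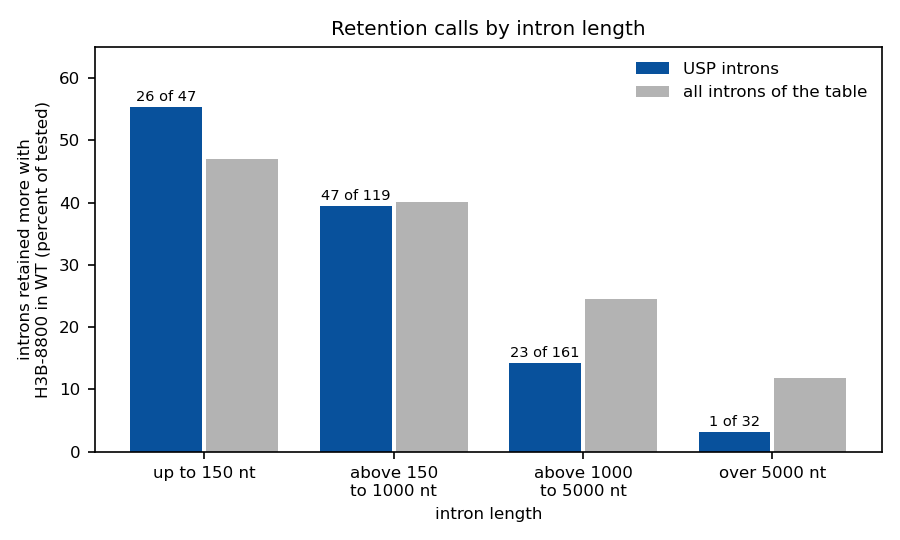
Percent of tested introns retained more with H3B-8800 in WT cells (vertical axis, bars from 0) in 4 classes of intron length (horizontal axis), for USP introns (dark bars, with their numbers) and all introns of the table (grey bars). The USP share falls from 55.3% up to 150 nt to 3.12% above 5000 nt.

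Nearly all untreated transcripts of USP7 had spliced the intron whose retention rose most in that gene. USP7 removes ubiquitin from MDM2 and p53.

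The retention of this USP7 intron was 0.29, 0.39 and 0.42% in the WT DMSO samples and 46.9, 41.7 and 47.5% in the WT H3B-8800 samples, with at least 907 reads each. K700E samples went from 0.81, 0.62 and 1.01% to 44.6, 40.2 and 32.2%. Treated and untreated samples were far apart in both genotypes, a log2 odds change of 7.70 ± 0.27 (SE) in WT and 6.24 ± 0.27 in K700E cells (adjusted p = 3.06e-09 and 1.02e-08). The largest rise was in USP21, where the 192-nt intron at chr1:161162727-161162918 went from 16.9, 18.2 and 20.9% to 86.8, 92.3 and 89.8% in WT cells and from 18.5% to 85.9% in K700E cells. In USP19 the 117-nt intron at chr3:49116163-49116279 rose from 2.57, 5.17 and 4.57% to 74.8, 66.4 and 71.4% in WT cells and from 3.07% to 66.8% in K700E cells. The treated USP21 and USP19 transcripts thus mostly kept these introns, unlike the untreated ones. USP22, the deubiquitinase of the SAGA complex, retained its 1128-nt intron at chr17:21003074-21004201 at 0.91, 2.11 and 1.43% in WT DMSO and 50.3, 51.8 and 52% in WT H3B-8800 samples. For USP1, which acts with WDR48 on FANCD2 and PCNA, the 1579-nt intron at chr1:62448667-62450245 rose from 4.16, 5.48 and 4.42% to 49.5, 44.3 and 43%. K700E cells went to 54.8% in USP22 and to 43.9% in USP1. Both introns are longer than the median of the changed USP introns. In WT cells retention also rose for a 98-nt intron of USP33 (12.4% to 63.8%), a 90-nt intron of USP24 (1.46% to 47.5%), a 976-nt intron of USP28 (8.58% to 51%) and a 538-nt intron of the nucleolar USP36 (1.85% to 38.3%). A 412-nt intron of USP20 went from 19.5% ± 9.43 to 70.0% ± 10.6 (SD, n = 3), with as few as 26.8 reads in a sample.

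**Figure D3:**
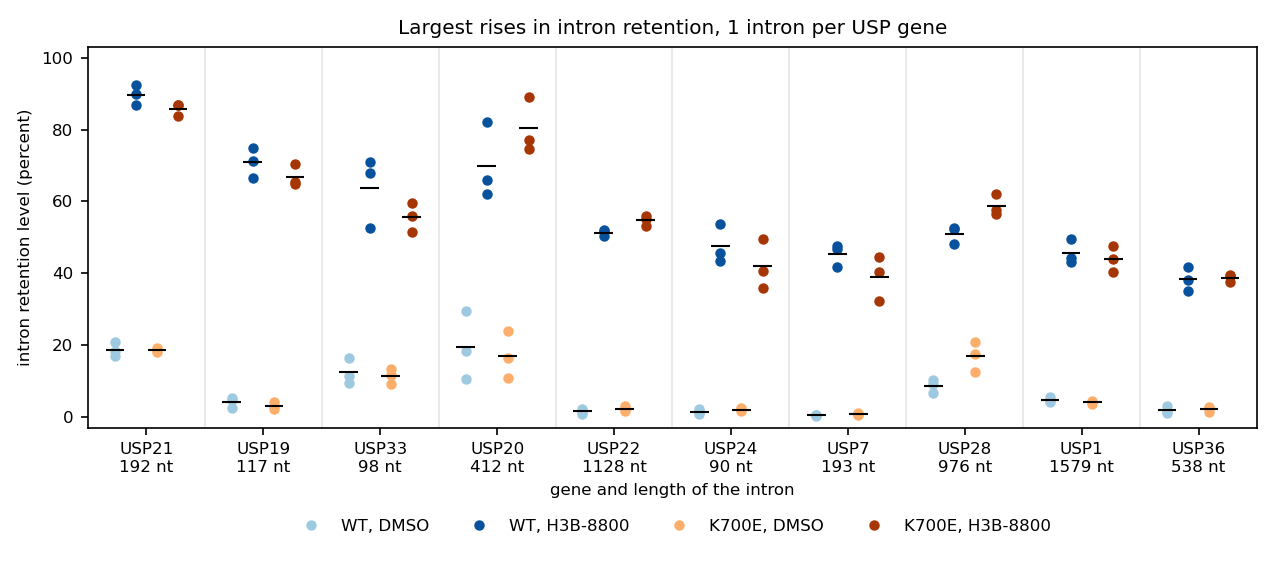
Retention level in percent (vertical axis) of the intron with the largest rise in each of 10 USP genes (horizontal axis, with intron length), for 3 samples per group as points and the group mean as a line. The untreated samples of USP7 lie at or below 1.01% and its treated samples between 32.2 and 47.5%.

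A few alternative splice sites of USP genes passed the test. In WT cells 7 of 89 tested alternative 3′ sites in 5 USP genes changed, against 9.24% of all such sites in the table, and 5 of 48 alternative 5′ sites in 5 genes, against 7.06%. K700E cells had 14 alternative 3′ sites in 9 genes, against 12.2% of all, and 2 alternative 5′ sites, against 5.59%. In all 5 genes with changed 3′ sites in WT cells, the site used more lay upstream of the main one, inside the intron. In USP37, a deubiquitinase of cyclin A, a site 40 nt upstream was used at 12.7, 14.3 and 17.4% in WT DMSO and 63.2, 67 and 65.5% in WT H3B-8800 samples, and became the main site in both genotypes (17.5% to 72% in K700E cells). In USP36 a site 60 nt upstream went from 0.27, 0 and 0.28% to 41.2, 45.5 and 40.5% in WT cells, inside the 538-nt intron named above, and from 0.573% to 41.1% in K700E cells. The 0 in WT DMSO replicate 2 stands for 368 reads, which allow a use of up to 0.815%. USP40 had a site 158 nt upstream that rose from 7.01% to 30.3% in WT cells and from 9.93% to 30.3% in K700E cells. In USP53 a site 70 nt upstream had no read in the WT DMSO samples, where 41 to 75 reads allow up to 4 to 7.32%, and 18.5, 11.1 and 19.7% with H3B-8800, and it rose from 0.927% to 21.2% in K700E cells. USP5, which takes apart free ubiquitin chains, used a site 41 nt upstream at 2.1, 2.65 and 2.26% and 12.9, 10.1 and 15.2% in WT cells, a rise that stayed at 9.12 points, under the 10-point minimum, without WT H3B-8800 replicate 3. In K700E cells the USP5 site went from 2.37% to 10.5%, which is under the minimum.

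Each changed 5′ site in WT cells was used more and lay downstream of the main one. USP46, a partner of WDR48, used a site 59 nt downstream at 6.67, 7.59 and 7.32% in WT DMSO and 22.9, 23 and 25.6% in WT H3B-8800 samples, and in K700E cells it rose from 7.87% to 20.6%. USP28, known from the 53BP1 and MYC pathways, used a site 45 nt downstream at 4.11% and 16.9% in WT and at 2.73% and 14.8% in K700E cells. USP47 (77 nt, 1.79% to 15.2%), USP18 (39 nt, 6.05% to 16.9%) and USP21 (352 nt, 2.39% to 12.5%) passed in WT cells. In K700E cells these 3 sites went to 9.81%, 11% and 10.8% and did not pass. The WT call of USP18 was lost without WT DMSO replicate 1 (9.69 points) or WT H3B-8800 replicate 3 (9.66), and that of USP21 without WT DMSO replicate 2 (9.77) or WT H3B-8800 replicate 2 (7.77). USP21 passed in K700E cells without K700E H3B-8800 replicate 1 (10.9 points). The fifth largest 3′ site change in K700E cells was in USP19, where the main site of a pair 45 nt apart rose from 57.9, 60.1 and 59.1% to 88.4, 72.2 and 70.8%, a call lost without K700E H3B-8800 replicate 1 (adjusted p = 0.0911).

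Between genotypes few USP events differed. In DMSO 2 of the 942 tested USP events passed, against 0.349% of all events, and both were the complementary 3′ sites of one USP19 intron. A site 9 nt downstream of the main one was used at 5.41, 3.53 and 2.51% in WT and 13, 15.7 and 15.1% in K700E samples (adjusted p = 0.00724). With H3B-8800 it stood at 3.73% in WT and 7.48% in K700E cells. The K700E samples lay above all WT samples in both conditions, and fitted on the 6 DMSO samples alone the adjusted p was 0.0735.

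With H3B-8800, 6 USP events in 4 genes differed between K700E and WT cells, against 0.508% of all events. In USP15, a relative of USP4, a 3′ site 14 nt upstream of the main one was used at 2.59, 1.4 and 2.33% in WT and 24.1, 25.6 and 24.9% in K700E samples (adjusted p = 0.000586). In DMSO its use was 1.4, 2.19 and 0.48% and 7.97, 8.02 and 6.79%, a difference of 6.24 points that is under the minimum size. USP34 used a site 27 nt upstream at 3.6, 5.67 and 4.36% in WT and 18.6, 18.1 and 21.1% in K700E samples (adjusted p = 0.000961), and at 2.55% and 8.48% in DMSO. For both sites the K700E samples lay above all WT samples with and without the compound. A 246-nt intron of USP20 at chr9:129869426-129869671 was retained at 39.6, 32.3 and 32.9% in WT and 9.43, 19.3 and 10.1% in K700E samples (adjusted p = 0.039). In USP10, which acts on p53, a 92-nt exon at chr16:84758716-84758807 was included at 62.1, 61.1 and 59.2% in WT and 78.9, 70.4 and 78.6% in K700E samples (adjusted p = 0.0388), and the next exon, of 110 nt at chr16:84759363-84759472, at 67.1, 65.4 and 64% and 81, 73.8 and 81.6% (adjusted p = 0.0478). In DMSO the 92-nt exon stood at 98% in WT and 98.7% in K700E cells. The 92-nt exon is printed because it holds the codon of the catalytic cysteine of USP10, which the pattern above does not match.
USP10 exon of 92 nt (capitals, plus strand): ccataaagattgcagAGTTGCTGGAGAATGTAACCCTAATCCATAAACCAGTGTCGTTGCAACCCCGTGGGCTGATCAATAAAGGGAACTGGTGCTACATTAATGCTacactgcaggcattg

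The USP10 and USP20 calls were lost without any 1 of 5 of the 6 libraries compared, all but K700E H3B-8800 replicate 2. Without WT H3B-8800 replicates 1, 2 and 3 in turn the adjusted p was 0.099, 0.132 and 0.151 for the 92-nt exon and 0.15, 0.1 and 0.103 for the USP20 intron, and without K700E H3B-8800 replicates 1 and 3 it was 0.169 and 0.151 for the exon and 0.165 and 0.152 for the intron. For the 110-nt exon the same 5 values lay between 0.108 and 0.191. Within these 6 libraries alone the adjusted p was 0.0951 for the 92-nt exon and 0.114 for the intron. The difference of the H3B-8800 effect between genotypes passed for 0 of 942 USP events, against 0.00917% of all events (limma), while 73 (7.75%) had an unadjusted p under 0.05, against 7.23% of all events, and 8 (0.849%) passed in a fit on percentage points, against 0.664%.

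**Figure D4:**
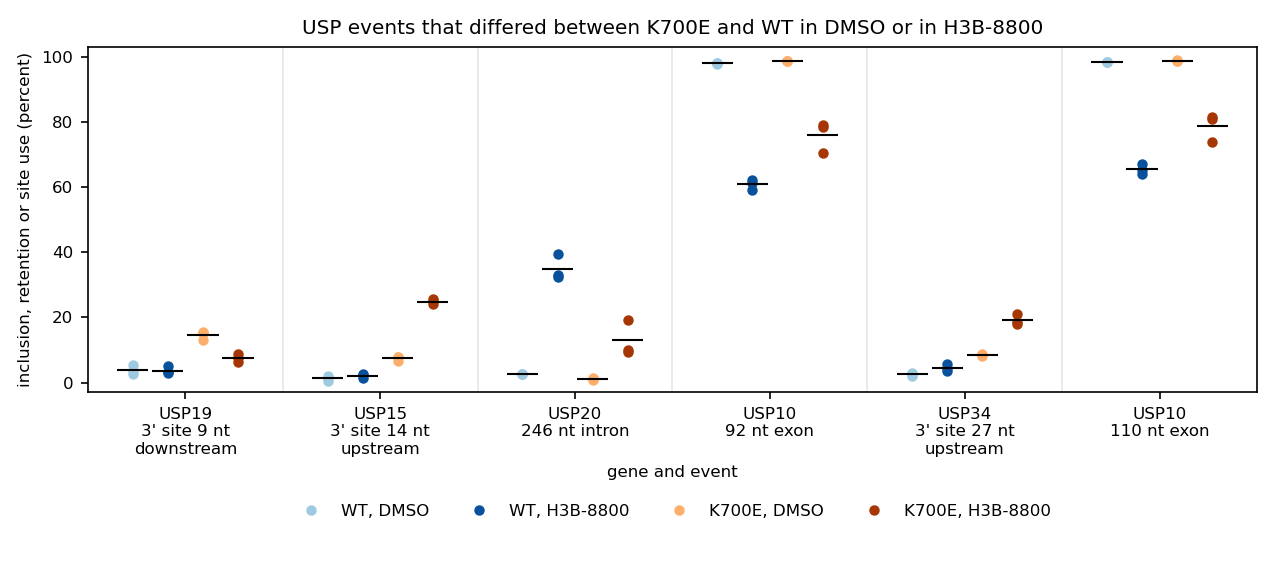
Level in percent (vertical axis: site use, intron retention or exon inclusion) of 6 USP events that differed between K700E and WT cells in DMSO or in H3B-8800 (horizontal axis), for 3 samples per group as points and the group mean as a line. The USP15 site lies between 24.1 and 25.6% in treated K700E samples and at or below 8.02% in all other samples.

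Spliced reads counted the joined junctions of a gene, a number that also falls when exons are skipped or introns kept. With H3B-8800, 24 of 41 USP genes had fewer spliced reads in WT cells and 8 had more (limma on the log2 scale of RPM, adjusted p under 0.05 over 10182 genes), against 40.8% and 18.5% of all genes. In K700E cells 21 had fewer and 9 more, against 35.8% and 16.2%. The median gene of the whole table moved by −0.28 on the log2 scale in WT and −0.22 in K700E cells, and the median USP gene by −0.49 and −0.31. Scaled by median-of-ratios size factors, which bring the median gene to −0.01 and −0.00, 21 USP genes were lower and 11 higher in WT cells, against 29.3% and 29.2% of all genes on that scale, and 19 and 11 in K700E cells, against 26.2% and 26.4%. Log2 changes below are on the RPM scale and should be read against these medians.

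Per annotated intron, the WT DMSO level was highest for USP7 (23.7 RPM per intron), followed by USP1 (18.2), USP14 (17.5), USP10 (14.1), USP5 (13.5) and USP39 (12.8). The lowest were USP53 (0.558), USP54 (0.525) and USP35 (0.4). The family thus spanned levels from under 1 to over 20 RPM per intron in untreated MEC1 cells. USP18 and USP11 had only 2 introns each in the table. USP18 and USP41, and USP32 and USP6, are near-identical in part, so their reads may be split between copies, and the single tested exon of USP6 is uncertain for that reason.

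Among the enzymes of ubiquitin recycling and the proteasome, all 3 members fell in both genotypes. Of all genes, 40.8% fell in WT and 35.8% in K700E cells. USP14, which trims chains at the proteasome, stood at 253, 250.3 and 233 RPM in WT DMSO and 137, 134 and 124 in WT H3B-8800 samples, a log2 change of -0.90 ± 0.11 (SE, adjusted p = 3.31e-05). USP13 fell by 0.83 on the log2 scale in WT and by 0.76 in K700E cells. USP5 fell by 0.30 and 0.24, close to the median gene, and this call was lost with median-of-ratios factors in both genotypes (−0.03 and −0.02). In K700E cells the USP5 call was also lost without K700E DMSO replicate 1 (adjusted p = 0.0556) or 3 (0.0559) or K700E H3B-8800 replicate 2 (0.0558).

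Of 8 genes known from the p53 and MDM2 pathway, 6 were tested. In WT cells 4 fell and 2 rose, against 40.8% and 18.5% of all genes. USP7 went from 791, 669.6 and 675 to 411, 393 and 387 RPM in WT cells and from 628, 759 and 694 to 378, 421 and 378 in K700E cells, log2 changes of -0.84 ± 0.09 and -0.82 ± 0.09 (SE, adjusted p = 1.30e-05 and 2.42e-05). USP10 rose from 186, 178 and 185 to 314, 313 and 320.5 in WT cells, a log2 change of 0.78 ± 0.05 (adjusted p = 7.75e-07), and by 0.61 in K700E cells. USP42 had the largest rise of all USP genes, from 31.7, 35.1 and 36.5 to 67.9, 72.3 and 68.4 in WT cells, a log2 change of 1.01 ± 0.10 (adjusted p = 7.53e-06), and of 0.73 ± 0.10 in K700E cells. In these 3 genes treated and untreated samples did not overlap in either genotype. USP24 (-0.55), USP4 (-0.53) and USP15 (-0.49) fell in WT cells. USP15 was at -0.08 in K700E cells, where its sign turned with median-of-ratios factors (0.14) and without K700E H3B-8800 replicate 3 (0.08), and with those factors its WT call was lost (−0.22). Within these 6 genes, 30 of 83 tested exons were included less and 18 of 82 introns retained more in WT cells, against 40.3% of all tested exons and 31.9% of all tested introns.

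Both enzymes of MCL1, USP9X and USP13, fell in both genotypes, where 40.8% (WT) and 35.8% (K700E) of all genes were lower. USP9X stood at 214, 182 and 208 RPM in WT DMSO and 107, 95.8 and 100.4 in WT H3B-8800 samples (log2 change -0.99 ± 0.14, adjusted p = 0.000114), and fell by 0.94 in K700E cells. Of the 32 tested exons in this pair, 16 were included less in WT cells, against 40.3% of all tested exons.

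Of 6 tested histone deubiquitinases, 4 were lower and 1 higher in each genotype. Of all genes, 40.8% were lower and 18.5% higher in WT cells, and 35.8% and 16.2% in K700E cells. USP16 went from 166, 151 and 153 to 64.9, 64.5 and 68 RPM in WT cells (log2 change -1.25 ± 0.08, adjusted p = 6.37e-07) and fell by 0.95 in K700E cells. USP21 fell by 1.30 and 1.19, and USP22 by 0.84 and 0.84. Counted only over introns away from changed events, which left USP21 a single intron, it stood at −0.11 in WT (adjusted p = 0.776) and 0.19 in K700E cells (adjusted p = 0.621), so its direction turned in K700E cells and its call was lost in both. USP3, also a histone H2A enzyme, rose by 0.76 in WT and 0.64 in K700E cells. USP49, which acts on histone H2B, was at 0.07 and 0.02 and did not pass, and its sign turned without WT DMSO replicate 1 (−0.04) in WT cells and without K700E DMSO replicate 3 (−0.11) or K700E H3B-8800 replicate 1 (−0.07) or 2 (−0.05) in K700E cells. In this group 28 of 49 tested introns were retained more in WT cells, the 11 of USP21 among them, against 31.9% of all tested introns.

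The enzymes of DNA repair and the partners of WDR48 gave 1 lower and 1 higher member of 6 in each genotype. The shares of all genes were 40.8% lower and 18.5% higher in WT and 35.8% and 16.2% in K700E cells. USP1 stood at 156, 140.0 and 142 RPM in WT DMSO and 157, 146 and 149.7 in WT H3B-8800 samples, so the groups overlapped (log2 change 0.05 ± 0.12), and in K700E cells the change of 0.16 passed only with the replicate block of paired cultures (adjusted p = 0.00266), with median-of-ratios factors (0.38, adjusted p = 0.0289) or over introns away from changed events (0.34, adjusted p = 0.0393). USP12 rose by 0.49 in WT and 0.49 in K700E cells. USP11, known from BRCA2, fell by 1.16 in WT and 0.94 in K700E cells, from 2 introns. Its K700E call was lost without K700E DMSO replicate 1 (adjusted p = 0.0703) or K700E H3B-8800 replicate 2 (0.0611) or 3 (0.0697). USP28 (-0.17 and -0.17) and USP47 (-0.08 and -0.06) did not pass, and both turned sign with median-of-ratios factors (0.10 and 0.04 for USP28, 0.19 and 0.15 for USP47), though USP28 passed as lower with the replicate block (adjusted p = 0.0104 in WT and 0.00841 in K700E cells). USP46 was at 0.25 and 0.15 and did not pass, except in WT cells with the replicate block (adjusted p = 0.0142), on the contrast alone (0.0318) or with median-of-ratios factors (0.011).

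Of the NF-kappaB and interferon genes, USP18 and USP25 fell and USP31 rose in both genotypes. Among all genes 40.8% fell and 18.5% rose in WT cells, and 35.8% and 16.2% in K700E cells. USP18, which removes ISG15, stood at 3.88, 3.66 and 2.96 RPM in WT DMSO and 1.43, 1.44 and 0.983 in WT H3B-8800 samples, the lowest log2 change of the family (-1.45 ± 0.21, adjusted p = 0.000139), from 2 introns. USP31 rose from 16.8, 16.5 and 15.4 to 28.1, 34.7 and 27.8 (log2 change 0.89 ± 0.13) in WT cells and by 0.78 in K700E cells, while its 130-nt exon was skipped in part of the transcripts. USP25 fell by 0.76 in WT and 0.62 in K700E cells. In DMSO it was the single USP gene of 41 that differed between genotypes, against 4.86% of all genes. Its level was 78.4, 74.6 and 72 RPM in WT and 61.1, 49.8 and 52.6 in K700E samples, which did not overlap, a log2 difference of -0.46 ± 0.09 (SE, adjusted p = 0.02). That call was lost without WT DMSO replicate 1 (adjusted p = 0.0849), 2 (0.0832) or 3 (0.0533) or K700E DMSO replicate 2 (0.0553) or 3 (0.0581).

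Between genotypes under H3B-8800, 5 of 41 USP genes had more spliced reads in K700E than in WT cells and 1 had fewer, against 11.1% and 3.09% of all genes, whose median stood at 0.12 on the log2 scale. USP16 was at 64.9, 64.5 and 68 RPM in WT and 87.8, 79.1 and 100.2 in K700E samples, a log2 difference of 0.43 ± 0.08 (SE, adjusted p = 0.00999). USP35 (0.80), USP19 (0.53), USP12 (0.32) and USP34 (0.25) were also higher and USP25 (-0.32) was lower in K700E cells. In a fit on these 6 libraries alone 0 of the 41 passed (adjusted p = 0.0762 for USP16), and leaving out 1 library at a time left 1 to 5 calls, with that of USP16 among them each time. The calls of USP12, USP19 and USP34 were lost with median-of-ratios factors (0.21, 0.41 and 0.13).

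Members tied to the splicing machinery did not move as one: USP4 and USP15, which bind the splicing factor SART3, were lower and USP39 was higher in WT cells. USP39 rose from 166, 170.5 and 163 to 261, 257 and 258 RPM (log2 change 0.63 ± 0.06, adjusted p = 1.04e-05) and by 0.49 in K700E cells. At endosomes, the endoplasmic reticulum and mitochondria, 5 of 6 members fell in WT cells, against 40.8% of all genes. The 5 were USP20 (-1.30), USP19 (-1.07), USP8 (-0.91), USP32 (-0.86) and USP33 (-0.46). The USP33 call was lost with median-of-ratios factors (−0.19), and in K700E cells USP33 (-0.30) passed only without K700E DMSO replicate 3 (adjusted p = 0.0425) or K700E H3B-8800 replicate 1 (0.00863), or with the replicate block (0.00015). USP30 was at 0.25 in WT cells, where it passed with the replicate block (adjusted p = 0.0224), on the contrast alone (0.0359) or with median-of-ratios factors (0.52, adjusted p = 0.00364), and rose by 0.36 in K700E cells (adjusted p = 0.0446), a call lost without K700E DMSO replicate 2 (0.104) or 3 (0.135) or K700E H3B-8800 replicate 1 (0.152) or 3 (0.0843), on the contrast alone (0.158), with genes of a mean of at least 1 read (0.0587) or over its 3 introns away from changed events (0.20, adjusted p = 0.337). USP37, the tested member of the cell cycle group, was at 0.16 in WT and 0.10 in K700E cells and did not pass except in WT cells with the replicate block (adjusted p = 0.0178) or, in both genotypes, with median-of-ratios factors (0.43 and 0.32), and turned to −0.00 in K700E cells over introns away from changed events. Outside these groups, USP40 (-1.37) and USP45 (-1.17) were among the 6 lowest in WT cells and USP38 (0.83) among the 6 highest. The difference of the H3B-8800 effect between genotypes passed for 0 of 41 USP genes, against 0.0491% of all genes (limma). An unadjusted p under 0.05 was found for 3 USP genes (7.32%), near the 5.0% of all genes. In a fit with the culture as a replicate block 1 USP gene passed, and the share of all genes under that fit was not counted.

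**Figure D5:**
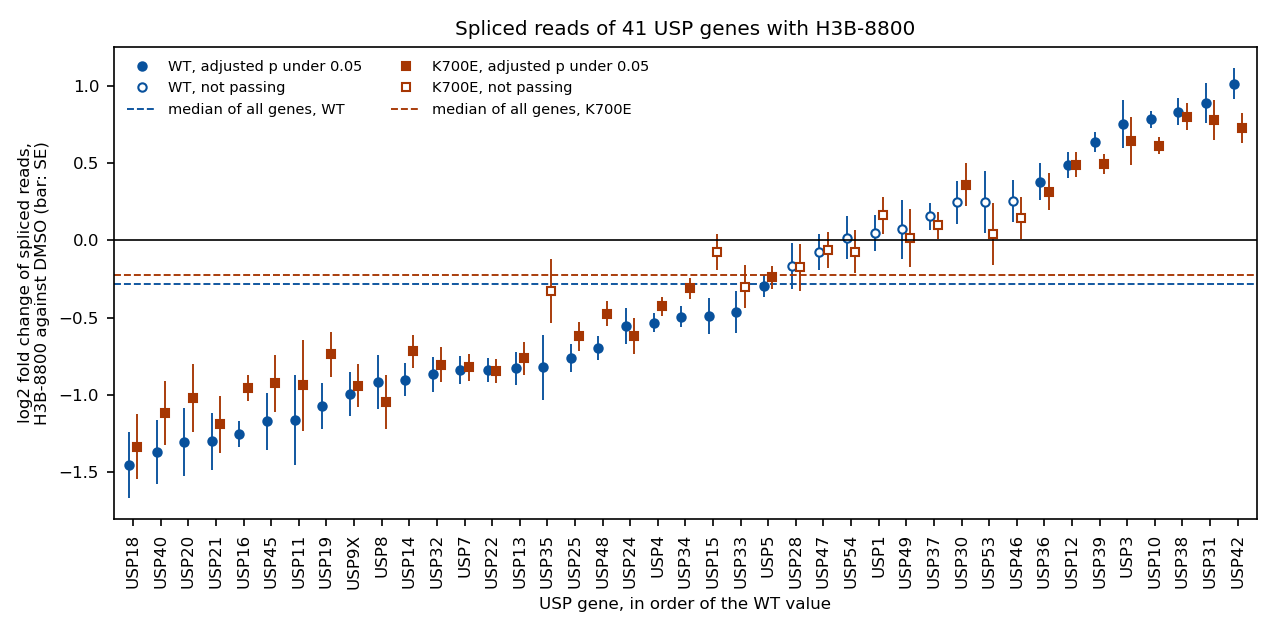
Log2 fold change of spliced reads with H3B-8800 (vertical axis, bars give the SE) for 41 USP genes in order of the WT value (horizontal axis), in WT (circles) and K700E cells (squares), filled where the adjusted p is under 0.05. Dashed lines mark the median of all genes, −0.28 in WT and −0.22 in K700E cells. USP18 is lowest at −1.45 and USP42 highest at 1.01 in WT cells.

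Other genes of the ubiquitin system were counted the same way, where 40.8% of all genes were lower and 18.5% higher in WT cells and 35.8% and 16.2% in K700E cells. Among 6 USP cofactors 2 fell and 2 rose in WT cells and 1 each way in K700E cells. WDR48, the activator of USP1, USP12 and USP46, fell by 0.99 in WT and 0.49 in K700E cells, and ATXN7, a SAGA subunit with USP22, rose by 0.67 in WT cells. Of 34 further genes without a numbered USP symbol, most of them from other deubiquitinase families, 30 were tested. In WT cells 9 were lower and 9 higher, and in K700E cells 7 and 9. USPL1, which acts on SUMO, rose by 1.65 in WT and 1.60 in K700E cells, and UCHL5, a deubiquitinase of the proteasome, fell by 1.23 and 0.83. Of 7 textbook substrates, 2 fell and 4 rose in WT cells, and 2 fell and 3 rose in K700E cells. FANCD2 fell by 1.28 in WT and 0.81 in K700E cells and PCNA by 0.95 and 0.59, whereas MDM2 rose by 0.98 and 0.78 and MYC by 0.87 and 0.81.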

How the data were processed

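The authors deposited a single table of alternative splicing events for the whole series, built on hg38 per the submitters' processing notes, which also name cutadapt 2.4; the program that quantified the events is not given in the sources used here. Per the file headers, each event has a level in percent per sample and a text column with read numbers after an @ sign, both made by the authors over 3 sequencing runs of a sample. Libraries were poly(A)-selected and stranded, per the labels' protocols. Another 72 columns hold single runs and were not used. Of 4598029 levels compared with the reads, 0 differed by more than 1 point.

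Inclusion and exclusion reads, with 0.5 added to each, were taken from the deposited text columns and tested as log2 odds with limma 3.58.1 in R 4.3.3 (data.table package, version 1.17.8; Python 3.11.15 and pandas 2.3.3 for parsing) on all 12 samples as 4 groups, with trend on read number. Events needed 20 reads in all samples and a mean level of 1 to 99%, introns also reads balanced between both ends (p under 0.05 in at most 6 samples), and the first site of each alternative site event was left out because the levels of an event's sites add up. This left 109093 events, 942 of them in USP genes (446 for exons, 359 for introns, 89 for 3′ and 48 for 5′ sites). Spliced reads per gene are the exon-exon reads of its intron events, tested with limma on the log2 scale of RPM (spliced reads per 1000000 spliced reads of the sample) where the mean was 50 or more. Depth was 45840233 to 56676172 spliced reads per sample, and intervals and limits of a count of 0 (3 counts) cover counting error only.

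Members and lists were chosen with earlier results of these data known. Events were named by a rule: per compound contrast and 1 per gene, the 10 largest exon and 10 largest intron changes and the 5 largest 3′ and 5 largest 5′ site changes among called events whose groups do not overlap, every called event between genotypes, and the 6 lowest and 6 highest called changes in spliced reads. Exons moving the other way, the neighbours of the USP19 exon and the genes that differ in spliced reads between genotypes under H3B-8800 were added after their values were seen. Same-numbered samples of a genotype come from one culture, by their labels. Over the log2 odds of the tested events, their deviations from the group means correlated by 0.01 to 0.07. For spliced reads this correlation was not computed, and the main fit leaves the shared cultures out. There USP1, USP28, USP30, USP33, USP37 and USP46 each gained a call with the replicate block, as given beside them. Alternatives were read minima, level and size thresholds, weights, percentage points, other scaling, introns away from called events, single contrasts, a replicate block and leaving out each sample. The code was tested on simulated data. The counts of 1 list of ubiquitin system genes and the sequence of 1 intron are not reported here.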

Additional observations from a re-analysis of the deposited data

How the results depend on the processing

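With a minimum difference of 20 points, exons included less with H3B-8800 numbered 115 in WT and 107 in K700E cells, introns retained more 61 and 52, alternative sites 5 and 6, and genotype differences 0 in DMSO and 3 with H3B-8800. At 5 points, introns numbered 167 and 164, alternative sites 25 and 34 and genotype differences in DMSO 8. With the first site of each event included, 20 and 26 alternative sites passed. Read weights gave 5 genotype differences in DMSO and 14 with H3B-8800, percentage points 22 with H3B-8800 and 8 differences of the effect, and fits on single contrasts 0 and 3. For spliced reads between genotypes in DMSO, 0 USP genes passed on the contrast alone (likewise 0 with H3B-8800), 2 with a mean of at least 200 reads and 3 over introns away from called events. With the culture as a replicate block, 25 USP genes were lower and 12 higher in WT and 23 and 10 in K700E cells, and 1 differed in its effect between genotypes. Shares of all genes under that fit were not counted, so these numbers cannot be set against the shares given above. The paired fit changed no call of the events and genes described beyond those given beside USP1, USP28, USP30, USP33, USP37 and USP46.

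Leaving out 1 sample at a time gave 192 to 203 exons in WT and 177 to 183 in K700E cells, 93 to 102 and 91 to 109 introns, and 10 to 17 and 14 to 16 alternative sites. Genotype differences numbered 2 to 2 in DMSO and 3 to 7 with H3B-8800 (3 without WT H3B-8800 replicate 3 or K700E H3B-8800 replicate 3), and differences of the effect 0 to 1 (1 without K700E DMSO replicate 1). USP genes with fewer spliced reads numbered 24 to 24 in WT and 19 to 22 in K700E cells, those with more 7 to 8 and 7 to 8, those between genotypes 0 to 1 in DMSO and 1 to 5 with H3B-8800 (1 without WT H3B-8800 replicate 2, 2 without WT H3B-8800 replicate 1 or K700E H3B-8800 replicate 1, 3 without WT H3B-8800 replicate 3) and those with a difference of the effect 0 to 0.

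Signs of log2 changes turned with median-of-ratios factors for USP15 in K700E cells (0.141), USP28 (0.103 in WT, 0.043 in K700E) and USP47 (0.194 and 0.154), and over introns away from called events in K700E cells for USP21 (0.190) and USP37 (-0.003). Leaving out 1 sample at a time gave -0.189 to 0.076 for USP15, -0.187 to 0.037 for USP47 and -0.112 to 0.169 for USP49 in K700E cells and -0.044 to 0.163 for USP49 in WT cells. The cause was not tested. Depth limits events with few reads, with as few as 23 in a sample for the USP45 exon and 26 for the USP18 site.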
